A study of Mus musculus with 42 samples.

Results

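Ribosome biogenesis genes were followed in the intima of mouse carotid arteries under low, high and sham flow, after depletion of platelets or leukocytes, after endothelial deletion of the splicing factor Rbfox2, and in cultured endothelial cells. The group holds 37 of the 21674 genes in the deposited table. Its members were chosen by name, with no measured value in the rule, although earlier results of these data were known at the time. They are 4 genes of RNA polymerase I transcription, 4 of the box C/D and 4 of the H/ACA small nucleolar ribonucleoproteins (snoRNPs), 5 nucleolar proteins, 10 factors of the small subunit, 9 factors of the large subunit, and Myc.

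A ribosome is built in the nucleolus, where RNA polymerase I transcribes one long precursor of the ribosomal RNAs. Box C/D snoRNPs methylate this precursor and H/ACA snoRNPs turn chosen uridines into pseudouridines, each guided by a small nucleolar RNA. Processing factors then cut and fold the precursor into the small and the large subunit, and ribosomal proteins join on the way. Myc, a transcription factor that binds DNA together with Max, is known for raising ribosome production in growing cells, and cells that prepare to divide make more ribosomes.

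The carotid samples came from partial ligation, an operation that closes most of the outflow of the left carotid, so that flow in the left common carotid was low and the right carotid served as the high-flow side. RNA was flushed from the intima, and each library is a pool of several arteries. Nothing in the sources says how many animals a pool shared with another, so p-values measure the spread between pools. The series held 42 libraries in 23 groups.

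At 48 hr, untreated young male C57BL/6J mice gave 3 low-flow, 3 high-flow and 3 sham pools, called a, b and c within each group, so that a shared letter pairs no pools. In the sham operation the suture was placed but not tied. In the depletion experiment, C57BL/6J mice were ligated. They received anti-GPIba, which removes platelets, at ligation, anti-Gr1 on the day before, control IgG, or clodronate or PBS liposomes. Of the liposomes, clodronate is toxic to phagocytes. The paper gives IgG on both antibody schedules, and the labels do not say which one the IgG pools had. Low-flow pools were taken for all 5 treatments and high-flow pools for IgG and PBS, with 2 pools in each group. At 7 days, Rbfox2 EC-KO mice were homozygous for a floxed Rbfox2 allele (Rbfox2 lox/lox) and held the Cdh5(PAC)-CreERT2 transgene together with the Rosa26-mTmG reporter, and littermate controls had the reporter and Rbfox2 lox/lox but no Cre. Controls therefore also held the floxed alleles, and both sexes were used after tamoxifen. The Cre is driven by the promoter of VE-cadherin, an endothelial gene, so other cells of the intima keep Rbfox2. This experiment had 3 low-flow pools (1, 4 and 5) and 2 high-flow pools (4 and 5) per genotype. The cultures were 1 library each: an aortic endothelial line immortalized with an inducible SV40 antigen, which is a single line, alone or for 48 hr with platelets and bone marrow monocytes, with 10% plasma, or with all of these; primary endothelial cells of an Rbfox2 EC-KO and a control; and primary cells sorted for eGFP. A low-flow PBS and a low-flow clodronate pool were also sequenced with 100 bp reads.

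Libraries held 4064477 to 6794904 counts in the untreated pools, 12286104 to 19035957 after depletion, 10318685 to 18633538 at 7 days and 4989843 to 16394043 in culture, and no member was at 0 in any library. Some libraries stood apart. In low-flow pools a and b, beta-actin alone took 10.6 and 10.1% of counts, against 3.74% in pool c, 0.699 to 1.1% at high flow and 0.516 to 1.5% after sham. Levels below are FPKM on the total count, whereas fold changes are on counts rescaled by the trimmed mean of M-values (TMM), with factors of 0.632 and 0.607 in low-flow pools a and b and 1.23 to 1.31 in low-flow pool c and at high flow. What sets these factors apart was not tested. Low-flow control pool 1 at 7 days differed from pools 4 and 5, with chi-square per degree of freedom of 272 and 212, compared with 68.4 between pools 4 and 5. Both anti-Gr1 pools and both clodronate pools also differed from each other, at 175 and 173. One run held all low-flow depletion pools and both pools numbered 1 at 7 days, and a different run held the depletion pools of the high-flow side, so that flow and run cannot be told apart in the IgG and PBS comparisons. In bulk flushes, more cells of a type and more RNA per cell cannot be told apart. All 11 endothelial markers were present in every group, and summed to 0.436 to 0.572% of counts at low flow and 0.948 to 1.12% at high flow in the untreated pools, but to 0.0289 to 0.0364% in the cell line. Those shares are on the total count. On TMM-scaled counts 3 of the 11 were called higher and 3 lower at untreated low than high flow, with a median of 0.12.

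Myc and its partner Max bind the E-box CACGTG, a sequence that reads the same on both strands. The promoters of the members were searched for these 6 letters to show what the members share in sequence. RefSeq promoters (GRCm38.p6, 250 bases before and 50 from the start site) matched 31 members by symbol, and 10 of the 31 (32.3%) held CACGTG, compared with 2349 of all 32851 promoters of this length (7.15%), 2187 of 27025 genes (8.09%) and 15 of 99 further ribosome biogenesis genes (15.2%). The 10 members are printed 5′ to 3′ on the strand of the gene, with the E-box in capitals and up to 12 bases on each side. In brackets is the position of its first base from the start site, where negative is upstream and positive lies in the transcript's first bases.
Nop2, chr6:125131811-125131840, plus strand (-60): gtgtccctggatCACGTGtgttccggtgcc
Pes1, chr11:3963965-3963994, plus strand (3): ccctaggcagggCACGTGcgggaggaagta
Nle1, chr11:82908355-82908384, minus strand (24): tcggttctcctcCACGTGgggacgcaggat
Mybbp1a, chr11:72441355-72441376, plus strand (41): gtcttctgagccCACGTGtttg
Utp20, chr10:88826765-88826789, minus strand (38): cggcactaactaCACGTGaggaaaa
Wdr43, chr17:71616220-71616249, plus strand (18): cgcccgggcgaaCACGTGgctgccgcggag
Ltv1, chr10:13193092-13193121, minus strand (29): gccctgtggaccCACGTGtggagctgccgg
Pno1, chr11:17211540-17211564, minus strand (38): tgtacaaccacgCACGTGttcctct
Tsr1, chr11:74898092-74898121, plus strand (25): tcacttggtgcaCACGTGgactgcagaatg
Rrn3, first E-box, chr16:13780472-13780501, plus strand (-215): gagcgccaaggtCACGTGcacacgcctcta
Rrn3, second E-box, chr16:13780639-13780668, plus strand (-48): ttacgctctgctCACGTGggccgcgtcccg

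Of these 10 genes, 4 make the large subunit or are nucleolar (Nop2, Pes1, Nle1 and Mybbp1a), 5 make the small subunit, and Rrn3 carries RNA polymerase I to the ribosomal DNA promoter. Rrn3 held the letters at 2 places. The match describes the letters in this window only, and binding was not measured.

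Low flow was first compared with the contralateral high flow at 48 hr, which asks how the intima responds to the loss of flow. Of the 37 members, 35 were higher at low flow and none was lower, with a median log2 fold change of 1.62 (range 0.61 to 3.70) compared with -0.07 over all genes. Among all 11236 genes tested, 46.2% passed the same test (edgeR quasi-likelihood, Benjamini-Hochberg adjusted p under 0.05), and 23.6% were higher and 22.6% lower. On the total count, 22 members had every low-flow pool above every high-flow pool (12.2% of all genes), and on TMM-scaled counts 35 did (27.9%). No member had every low-flow pool below (39.4% of genes on the total count and 30.2% on TMM-scaled counts). The call depends on the scaling. With libraries scaled to the total count alone, 15 members were higher, when 36.7% of genes passed in either direction, and the median of all genes moved to -0.69, while the members stayed 1.71 above that median, compared with 1.69 under TMM.

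**Figure D1:**
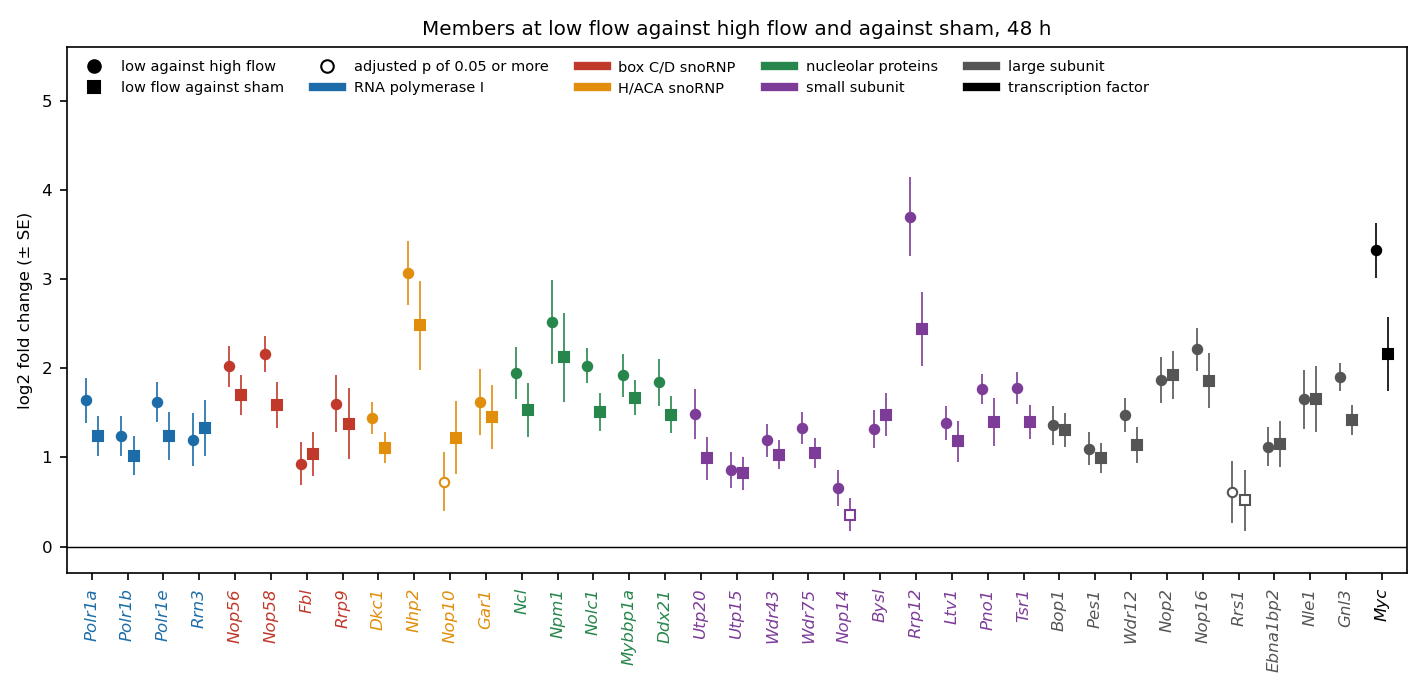
Log2 fold change (y axis, TMM-scaled, bars of 1 standard error) of each member at low flow over high flow (circles) and over sham (squares) at 48 hr, ordered and coloured by role, with open symbols for an adjusted p of 0.05 or more. All values lie above 0, and against high flow the open circles are Nop10 and Rrs1.

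Myc (mm9 chr15:61816946-61821929) had 18.4, 41.6 and 66.9 FPKM in low-flow pools a, b and c, compared with 5.41, 7.94 and 5.86 at high flow and 17.4, 7.31 and 19.4 after sham. Each low-flow pool lay above every high-flow pool, and pool a lay within the sham range. Myc was 3.32 ± 0.31 higher on the log2 scale at low than at high flow (SE, n = 3 pools each, edgeR adjusted p = 1.52e-05), and still 2.72 higher on the total count (adjusted p = 5.17e-08). Of 9 further genes of the Myc network that were tested, Mxd3 and Mxd1 rose by 4.42 ± 0.49 and 1.45 ± 0.22, and Mxd4 and Mxi1 fell by 1.43 ± 0.37 and 1.19 ± 0.28. Mxd and Mxi1 proteins compete with Myc for Max. Max itself differed by -0.52 ± 0.35 (edgeR adjusted p = 0.244).

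Transcription of the ribosomal RNA genes was represented by Polr1a and Polr1b, the 2 largest subunits of RNA polymerase I, by its subunit Polr1e, and by Rrn3. Rrn3 had 45.1, 36.4 and 37.4 FPKM at low flow, 23.2, 32.1 and 34.8 at high flow and 31.8, 28.3 and 24.6 after sham. Low and high flow did not overlap, although the lowest low-flow pool (36.4) lay close to the highest high-flow pool (34.8). The TMM-scaled change of Rrn3 was 1.20 ± 0.30 (edgeR adjusted p = 0.00833), but 0.40 on the total count (adjusted p = 0.406). Polr1a is expressed at a low level and had 1.53, 1.84 and 3.65 FPKM at low flow, 0.984, 1.49 and 0.924 at high flow and 1.75, 1.28 and 1.61 after sham. Low-flow pool a lay within the sham range. The change of Polr1a between high and low flow was 1.64 ± 0.25 (edgeR adjusted p = 0.000441), again lost on the total count (1.04, adjusted p = 0.12). All 4 genes of this class passed under TMM, with a median of 1.43, and none passed under total count scaling.

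Of the snoRNP proteins, all 4 of the box C/D and 3 of the 4 of the H/ACA class passed. Nop56 and Nop58, which form the core of box C/D particles, had 119, 139 and 200 FPKM and 57.4, 53.1 and 110 FPKM at low flow, compared with 54.8 to 69.4 and 22.3 to 30.6 at high flow. They rose by 2.02 ± 0.23 and 2.16 ± 0.20 (edgeR adjusted p = 5.78e-05 and 1.2e-05). Fbl, the methyltransferase of the same particle, changed less, by 0.93 ± 0.24 (edgeR adjusted p = 0.00952), and its pools overlapped on the total count, at 18.7 to 56.9 FPKM compared with 19.5 to 31. Rrp9, which binds the U3 particle, rose by 1.60 ± 0.32.

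Among the H/ACA proteins, Nhp2 (mm9 chr11:51433237-51437216) had the largest change. It had 160, 184 and 126 FPKM at low flow, 29.2, 33.8 and 37.1 at high flow and 46.3, 26 and 80.3 after sham, and the low-flow pools lay above all others. The change was 3.07 ± 0.36 (edgeR adjusted p = 7.32e-05), and 2.23 on the total count. The pseudouridine synthase Dkc1 rose by 1.44 ± 0.18 and Gar1 by 1.62 ± 0.37. Nop10 (mm9 chr2:112102083-112103426), the smallest protein of the same particle, did not pass against high flow. It had 238, 219 and 173 FPKM at low flow, 258, 203 and 209 at high flow and 202, 97.7 and 192 after sham, and the low-flow pools overlapped with both. Its difference from high flow of 0.73 ± 0.33 under TMM (edgeR adjusted p = 0.0949) was -0.09 on the total count. Against sham all 4 H/ACA members passed under TMM, Nop10 among them (1.11 to 2.48).

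The 5 nucleolar proteins all rose, and all 5 also passed on the total count. Npm1 (mm9 chr11:33052287-33063206), a chaperone that shuttles ribosomal subunits, had the highest level of all members, with 1911, 2246 and 1516 FPKM at low flow, 621, 570 and 579 at high flow and 686, 736 and 983 after sham. The low-flow pools lay above all others, by 2.52 ± 0.47 over high flow (edgeR adjusted p = 0.00148). Npm1 has processed copies in the genome, and how the counting divided reads among such copies was not examined. Ncl, which binds the nascent precursor, had 63.4, 75 and 99.9 FPKM at low flow against 29 to 38 at high flow and rose by 1.95 ± 0.29. Nolc1, the helicase Ddx21 and Mybbp1a, a regulator of polymerase I, rose by 2.03 ± 0.20, 1.84 ± 0.26 and 1.92 ± 0.24.

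In the small subunit class all 10 factors passed, with a median of 1.36. Rrp12 (mm9 chr19:41937342-41970643), needed to export pre-ribosomes, had 1.09, 2.75 and 3.19 FPKM at low flow, 0.337, 0.236 and 0.264 at high flow and 0.624, 0.53 and 0.883 after sham. The groups did not overlap, and its change of 3.70 ± 0.44 (edgeR adjusted p = 8.02e-05) was the largest of the 37, although at a low level. Ltv1, an export factor of the small subunit, had 22.5, 29.2 and 54.4 FPKM at low flow, 17.1, 24.1 and 20.8 at high flow and 23.2, 18.8 and 31.3 after sham. Its low-flow pool a lay within the range of high flow, and its change was 1.39 ± 0.19 under TMM (edgeR adjusted p = 0.00018) and 0.77 on the total count (adjusted p = 0.148). The late factors Pno1 and Tsr1 rose by 1.77 ± 0.17 and 1.78 ± 0.18 and passed under both scalings. Members of the early small subunit processome ranged from 0.66 ± 0.20 (Nop14) to 1.49 ± 0.28 (Utp20).

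Of the 9 large subunit factors 8 passed. Ebna1bp2 had the highest mean over the 9 untreated pools, with 41.4, 55.7 and 72 FPKM at low flow, 43.6, 41.5 and 41.2 at high flow and 41.5, 33.6 and 51.5 after sham. Low-flow pool a lay among the high-flow pools, and the change was 1.12 ± 0.22 (edgeR adjusted p = 0.00227) but 0.42 on the total count (adjusted p = 0.369). Nop16 had 49.3, 63.6 and 74.1 FPKM at low flow, 22.9, 25.2 and 18.7 at high flow and 28.2, 19.8 and 39.2 after sham, without overlap, and rose by 2.21 ± 0.24 (edgeR adjusted p = 4.3e-05). Gnl3, also called nucleostemin, had 24.4, 22.8 and 52.4 FPKM at low flow compared with 12.5, 14.2 and 13.8, and its change of 1.90 ± 0.16 had the smallest adjusted p of the members (8.21e-06). Bop1, Pes1 and Wdr12, which act as one complex, rose by 1.36 ± 0.22, 1.10 ± 0.18 and 1.48 ± 0.19. Rrs1 alone did not pass (0.61 ± 0.35, edgeR adjusted p = 0.169).

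**Figure D2:**
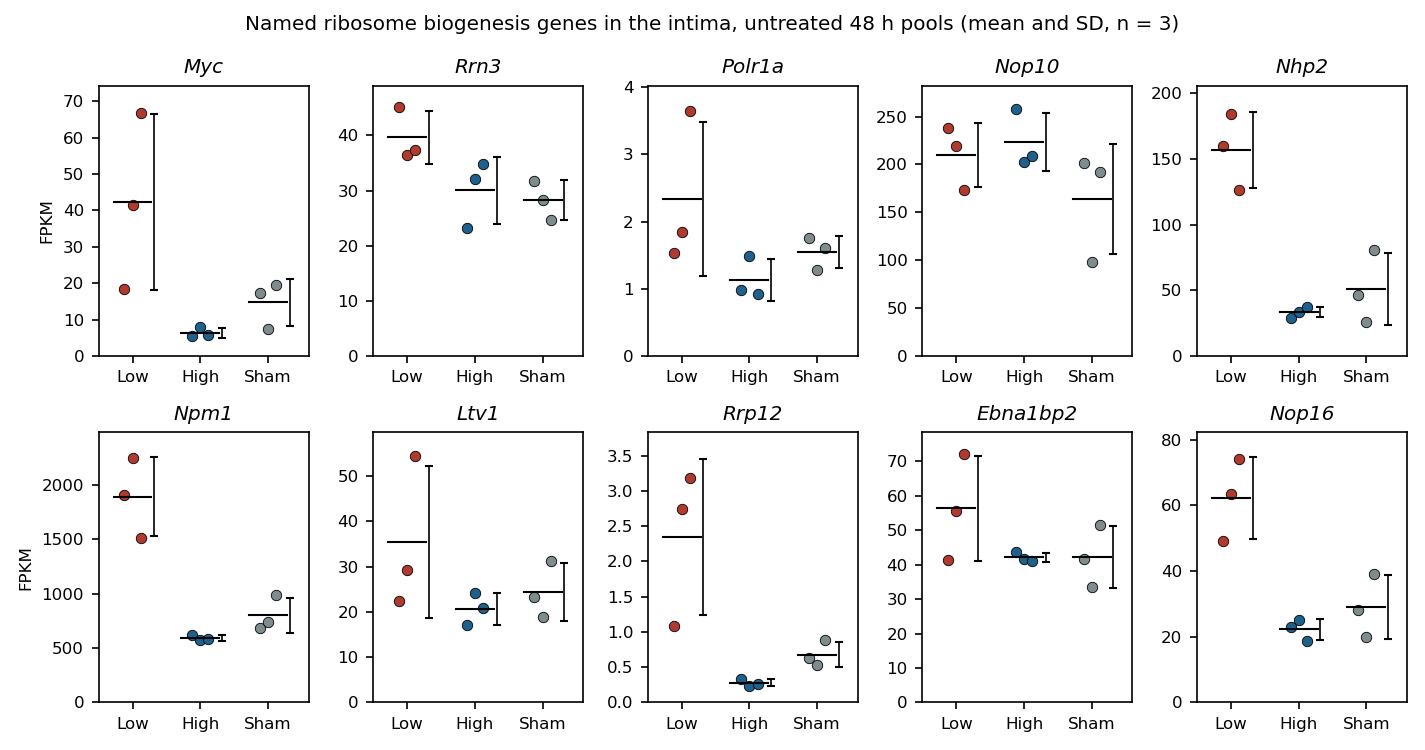
FPKM (y axis, linear from 0) of 10 members in each of the 9 untreated pools at 48 hr, with 1 point per pool in the order a, b, c, a line at the mean and a bar of 1 SD (n = 3). For Myc, Nhp2, Npm1, Rrp12 and Nop16 every low-flow pool lies above every high-flow pool, whereas Nop10 overlaps.

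Levels of the members spanned a wide range. Over the 9 untreated pools the mean was 1094 FPKM for Npm1, 199 for Nop10, 97.1 for Nop56, 80.2 for Nhp2 and 53.1 for Ncl, down to 1.74 for Rrs1, 1.67 for Polr1a, 1.1 for Rrp12 and 0.888 for Utp20. The mean covers low, high and sham flow together, and at high flow Ebna1bp2 (41.2 to 43.6) lay above Nhp2 (29.2 to 37.1) and Ncl (29 to 38). Neighbours in this order overlapped in their pools, except that the lowest pool of Npm1 (570) lay above the highest of Nop10 (258). Together the members took 0.441, 0.519 and 0.560% of all counts in low-flow pools a, b and c, 0.206 to 0.229% at high flow and 0.237 to 0.320% after sham.

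Further genes of the pathway were drawn from lists. Of 116 further ribosome biogenesis genes tested, 65 were higher and 2 lower at low flow under TMM, with a median of 0.71, but 4 were higher and 3 lower on the total count, with a median of 0.10. Their summed share was 0.341, 0.378 and 0.682% in low-flow pools a, b and c and 0.456 to 0.488% at high flow, so that pools a and b lay below high flow. Mrto4, a factor of the large subunit stalk, had 38.6, 48 and 64.7 FPKM compared with 14.3, 17.5 and 13.2 and rose by 2.43 ± 0.22, Urb2 rose by 2.17 ± 0.35 and Heatr1 by 2.03 ± 0.34, whereas Taf1b and Sbds fell by 0.64 ± 0.23 and 0.63 ± 0.22. Of 79 cytoplasmic ribosomal protein genes 77 were higher, with a median of 1.66 (43 and 0.78 on the total count), led by Rpsa (2.76 ± 0.57), Rpl26 (2.73 ± 0.61) and Rplp0 (2.59 ± 0.61). Many ribosomal protein genes have near-identical processed copies, so their single values are less certain than the count.

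Markers of other cells moved with these genes. The summed macrophage markers (14 genes) took 0.232 to 0.343% of counts at low flow, 0.00944 to 0.0215% at high flow and 0.025 to 0.0695% after sham, and 11 of 13 tested were higher at low than at high flow. All 6 neutrophil markers tested were higher, at 0.0227 to 0.0475% compared with 0.000705 to 0.00208% for the list of 9. All 12 proliferation genes were higher, with a median of 5.05, and took 0.1 to 0.149% compared with 0.0127 to 0.0166%. The smooth muscle list (8 genes) took 0.233 to 0.431% compared with 0.0533 to 0.0626%, with 3 of 7 tested higher. Adipocyte markers (7 genes) took less, at 0.00298 to 0.00703% compared with 0.0289 to 0.291%, and all 5 tested were lower, as were 2 of 6 fibroblast markers. No marker of these lists was at 0 in all pools of a group, and their part in the result was not tested.

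Compared with sham, which controls for surgery, low flow again gave 35 higher and no lower members, with a median of 1.38 (all genes, -0.04), when 40.3% of 11164 genes passed, 20.6% higher and 19.7% lower. The 2 that did not pass were Nop14 (0.36 ± 0.19, edgeR adjusted p = 0.146) and Rrs1 (0.52 ± 0.34, adjusted p = 0.242). The smallest adjusted p-values belonged to Mybbp1a (1.67 ± 0.20, edgeR adjusted p = 0.00135), Gnl3 (1.42 ± 0.17, adjusted p = 0.00137) and Nop56 (1.70 ± 0.22, adjusted p = 0.00167), and Myc rose by 2.16 ± 0.41 (adjusted p = 0.00571). On the total count 7 members passed, namely Nop56, Nop2, Nop16, Rrp12, Nhp2, Npm1 and Myc, when 30.1% of genes did in either direction, and 13 had all low-flow pools above all sham pools (7.49% of all genes), compared with 35 on TMM-scaled counts (28%). Both comparisons share the 3 low-flow pools. Against sham 10 of 13 macrophage, 6 of 6 neutrophil, 11 of 12 proliferation and 2 of 7 smooth muscle genes were higher, and their part in the result was not tested.

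Between high flow and sham, none of 36 tested members passed the edgeR test, and 0% of 11030 genes did (at an unadjusted p under 0.05, 3 members and 868 genes by edgeR, and 0 members and 101 genes passed DESeq2). The median was -0.28 and 7 members were positive. On the total count 9 members had every high-flow pool below every sham pool (8.52% of genes) and 1, Nop10, had every one above (4.29%), and on TMM-scaled counts these were 5 (5.67%) and 1 (7.1%). The smallest adjusted p-values were those of Myc (-1.16 ± 0.34, edgeR adjusted p = 0.362), Nolc1 (-0.51 ± 0.18, 0.473) and Gnl3 (-0.47 ± 0.17, 0.493). Myc depended on sham pool b, which was low at 7.31 FPKM. Without this pool it was 1.50 lower at high flow (edgeR adjusted p = 0.0278), the only member that then passed, when 0.69% of genes did. Macrophage and proliferation markers were lower at high flow in 11 of 12 and 10 of 10 tested genes by sign, and adipocyte markers were higher in 5 of 5 (median 3.38), although none passed, and their part in the values was not tested.

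**Figure D3:**
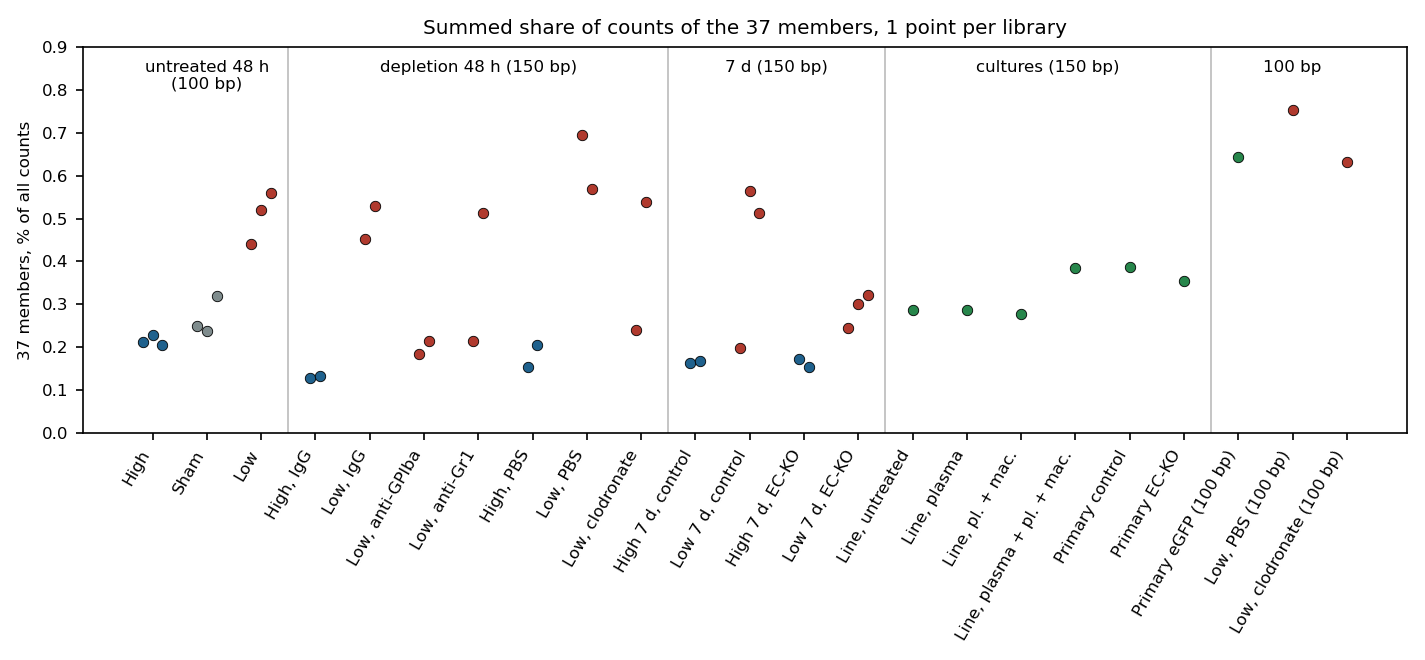
Summed share of the 37 members in all counts (y axis, percent, linear from 0) for each library, with low-flow pools in red, high-flow pools in blue, sham pools in grey and cultures in green. Untreated low-flow pools lie at 0.441 to 0.560% and untreated high-flow pools at 0.206 to 0.229%, and within the depletion experiment the anti-GPIba pools lie at 0.185 and 0.214% and the low-flow IgG pools at 0.452 and 0.529%.

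Platelets and leukocytes gather on the intima after ligation, and the depletions ask what the low-flow transcript levels are without them. With platelets depleted, 12 of 37 members were lower than with IgG at low flow and none was higher, when 16.5% of 13401 genes passed, 10.5% lower and 6.05% higher. All 37 had negative values, with a median of -1.42 (range -2.32 to -0.35) compared with -0.04 over all genes, and 36 had both anti-GPIba pools below both IgG pools (38.4% of all genes on the total count and 39.4% on TMM-scaled counts). Npm1 had 156 and 176 FPKM in anti-GPIba pools 1 and 2 and 460 and 475 in IgG pools 1 and 2, and fell by 1.53 ± 0.37 (edgeR adjusted p = 0.0295). Fbl had 33.5 and 39.9 FPKM compared with 121 and 141, and fell by 1.87 ± 0.46 (adjusted p = 0.0303). Nhp2 had 17.6 and 32.4 FPKM compared with 106 and 138, and fell by 2.32 ± 0.58 (edgeR adjusted p = 0.0313). The pools did not overlap for these 3 genes.

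The other members called lower were Nop56, Nop58 and Gar1 of the snoRNPs, Polr1e of the polymerase, Bysl, Ltv1 and Pno1 of the small subunit, and Bop1 and Gnl3 of the large subunit, at -2.12 to -1.45. Myc had 39.8 and 52.9 FPKM compared with 117 and 126, without overlap, but its change was -1.42 ± 0.81 (edgeR adjusted p = 0.224). Nop10 (39.8 and 65.2 FPKM compared with 80.9 and 74.7) had -0.60 ± 0.26. These calls rest on all 4 pools: leaving out any one of anti-GPIba pool 1 or 2 or IgG pool 1 or 2 left 0 members called, with medians between -1.50 and -1.23 and 1 to 89 genes called in all. DESeq2 called 22 members (27.3% of genes), and a fit of these 2 groups alone called 31 (34.5%). Of the ribosomal protein genes 52 of 79 were lower, and of the further biogenesis genes 9 of 116. Macrophage markers took 0.0275 to 0.0366% of counts compared with 0.239 to 0.264% (8 of 14 lower), and proliferation genes 0.00955 to 0.0142% compared with 0.118 to 0.192% (6 of 12 lower). Neutrophil markers took 0.000527 to 0.00151% compared with 0.0109 to 0.0369% (6 of 9 lower), and smooth muscle markers 0.0726 to 0.103% compared with 0.437 to 0.472% (2 of 8 lower). Endothelial markers were at 1.1 to 1.12% compared with 0.511 to 0.623% (2 of 11 higher). Platelet markers took 0.00245 to 0.00296% compared with 0.00346 to 0.00399% (2 of 9 lower and 1 higher). Their part in the fall was not tested.

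Anti-Gr1, directed at neutrophils and some monocytes, gave no called member against IgG, and 0% of 13401 genes were called (2 members and 2432 genes at an unadjusted p under 0.05, and 0 members and 142 genes by DESeq2). The median was -0.31 and 9 members were positive. The 2 pools disagreed. Nop56 had 51 and 133 FPKM in anti-Gr1 pools 1 and 2, Myc had 77 and 167, Utp20 1.07 and 9.22, and Rrp12 1.32 and 11.9, so that pool 1 was the lower each time. Without pool 1 the median of the members was 0.13 (24 positive), and without pool 2 it was -1.22 (0 positive), with no call in either. The smallest adjusted p-values were those of Nop10 (50.3 and 43.9 FPKM, -0.71 ± 0.26), Npm1 (180 and 286 FPKM, -0.98 ± 0.36) and Nhp2 (30.6 and 72.2 FPKM, -1.22 ± 0.56), at edgeR adjusted p = 0.243, 0.243 and 0.278. The summed smooth muscle share was 0.181% in one anti-Gr1 pool and 0.623% in the other, whereas proliferation genes took 0.0214% in both, compared with 0.118 to 0.192% with IgG (12 of 12 negative, median -3.71). Neutrophil markers took 0.00204 to 0.00343% compared with 0.0109 to 0.0369% (9 of 9 negative). None of these markers passed, and their part in the values was not tested.

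Clodronate gave no called member against PBS liposomes either, when 0.119% of 13401 genes passed (1 member and 2002 genes at an unadjusted p under 0.05, and 0 members and 462 genes by DESeq2). All 37 values were negative, with a median of -0.81. Here too the pools disagreed. Npm1 had 223 and 537 FPKM in clodronate pools 1 and 2 compared with 705 and 646 with PBS, Myc 33.1 and 103 compared with 142 and 86.6, and Nop56 63 and 144 compared with 193 and 167. Without clodronate pool 2, 4 members were lower, namely Dkc1, Ebna1bp2, Npm1 and Pno1 (-2.26 to -1.50, edgeR adjusted p = 0.0317 to 0.0459, 6.69% of genes), and without pool 1 none was. Npm1 had -0.92 ± 0.36, Wdr12 -0.87 ± 0.40 and Ebna1bp2 -0.85 ± 0.39 (edgeR adjusted p = 0.291, 0.335 and 0.338). Macrophage markers were at 0.0297 and 0.0304% in both clodronate pools, compared with 0.142 and 0.234%, whereas proliferation genes were at 0.0175% in one and 0.196% in the other, compared with 0.0553 to 0.199% with PBS. Neutrophil markers took 0.00313 to 0.00361% compared with 0.0103 to 0.0315% (6 of 9 negative, none called). Endothelial markers took 0.658 to 1.01% compared with 0.458 to 0.467% (7 of 11 positive, none called). The part of any of these lists in the members' values was not tested.

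The IgG and PBS arms also repeat the contrast of flow, with run and flow confounded. With IgG, 30 of 37 members were higher at low flow (median 1.81, all genes 0.07), when 40.5% of 13401 genes passed and 22.8% were higher, and all 37 had low-flow pools above high-flow pools (42.7% of genes on the total count). With PBS 27 were higher (median 1.82), when 35% passed and 19.6% were higher. Nhp2 had 9.46 and 6.66 FPKM at high flow compared with 106 and 138 at low flow with IgG, and 9.23 and 17.5 compared with 167 and 177 with PBS. Its changes of 3.85 ± 0.63 and 3.80 ± 0.62 (edgeR adjusted p = 0.0016 and 0.00153) were the largest in both arms. Gar1 rose by 3.01 ± 0.49 with IgG (7.73 and 9.85 FPKM to 66.8 and 83.8, adjusted p = 0.00151). With PBS, Npm1 rose by 2.76 ± 0.39 (99.8 and 116 FPKM to 705 and 646, edgeR adjusted p = 0.000744) and Fbl by 3.02 ± 0.48 (20.3 and 33.4 FPKM to 226 and 175, adjusted p = 0.00131).

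Nop10, which did not pass between low and high flow in the untreated pools, had the smallest adjusted p in both arms. It had 19 and 18.4 FPKM at high flow and 80.9 and 74.7 at low flow with IgG, and 22.1 and 27.4 compared with 101 and 106 with PBS, without overlap. The changes were 1.97 ± 0.27 and 2.17 ± 0.27 (edgeR adjusted p = 0.000892 and 0.000446). Myc had 15.3 and 27.4 FPKM at high flow with IgG and 3.84 and 35.5 with PBS, and rose by 2.42 ± 0.84 and 2.66 ± 0.85 (adjusted p = 0.0396 and 0.0311). By role, all 8 snoRNP members passed in both arms, whereas 2 of 4 polymerase members did, and Rrn3 had 0.44 ± 0.29 and 0.15 ± 0.29. With IgG, 15 members passed without high-flow pool 1, 19 without high-flow pool 2 and 16 without low-flow pool 2 (25.7, 28.6 and 15.3% of genes). With PBS, 7 passed without high-flow pool 1 and 15 without low-flow pool 1 (10.7 and 20.9%). Markers of other cells moved in both arms. With IgG, 11 of 14 macrophage, 6 of 9 neutrophil and 6 of 12 proliferation genes were higher and 5 of 11 endothelial markers lower (2 higher), and with PBS 9, 5 and 3 were higher and 4 endothelial markers lower (2 higher). Smooth muscle markers took 0.437 to 0.472% at low and 0.0513 to 0.0766% at high flow with IgG. With PBS they took 0.302 to 0.589% and 0.0487 to 0.0926%, and in each arm 4 of 8 were positive, 2 of them called. Macrophage markers took 0.239 to 0.264% of counts at low and 0.0168 to 0.045% at high flow with IgG, and 0.142 to 0.234% and 0.0214 to 0.0293% with PBS, and their part in the members' change was not tested.

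**Figure D4:**
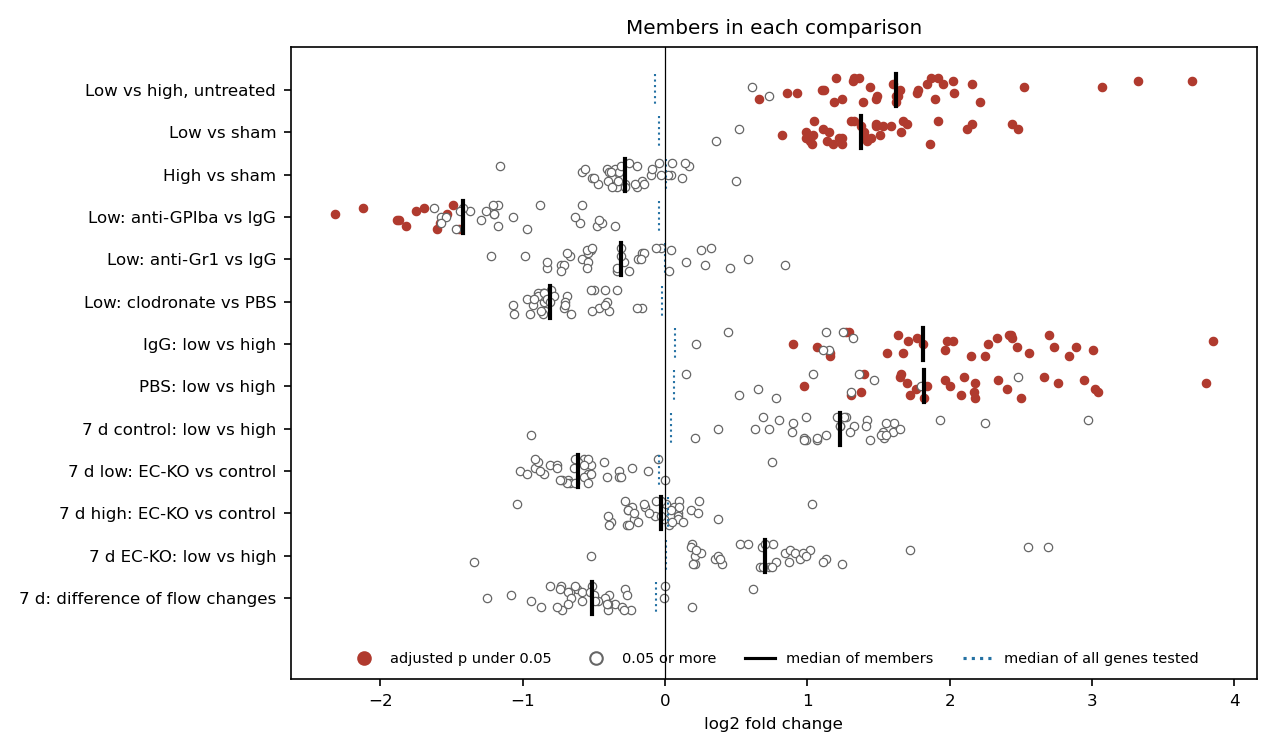
Log2 fold changes of the members (x axis, TMM-scaled) in each of the 13 comparisons (rows), one point per member, filled where the adjusted p was under 0.05, with a black bar at the median of the members and a dotted line at that of all genes tested. Values lie above 0 for all members in the 48 hr comparisons of low flow with high flow or sham and below 0 for all members after anti-GPIba and clodronate.

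At 7 days, the comparison of low with high flow in control mice gave no called member, when 2.4% of 13352 genes passed, 0.959% higher and 1.44% lower (29 members and 3332 genes at an unadjusted p under 0.05, and 21 members and 16.3% of genes called by DESeq2). The values were positive for 36 members, with a median of 1.23. The call changed without low-flow control pool 1. Myc had 39.8, 112 and 97.8 FPKM in low-flow pools 1, 4 and 5 compared with 10.4 and 9.78 in high-flow pools 4 and 5 (2.97 ± 0.67, edgeR adjusted p = 0.0514). Fbl had 45.7, 108 and 98.2 FPKM compared with 26.6 and 25.9 (1.60 ± 0.36, adjusted p = 0.0516), and Polr1a 5.43, 12.2 and 11.6 FPKM compared with 3.84 and 2.59 (1.52 ± 0.37, edgeR adjusted p = 0.0558). Pool 1 was the lowest of the low-flow pools for each, though above both high-flow pools.

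Without low-flow control pool 1, 33 members were higher and 1 lower, when 29.4% of genes passed, with a median of 1.62. Myc was then 3.31 ± 0.61 higher (edgeR adjusted p = 0.00398), Nop58 2.70 ± 0.27, Rrp12 2.41 ± 0.36, Fbl 1.90 ± 0.22 and Npm1 1.76 ± 0.26, and Nle1, Nop14 and Pes1 did not pass. The one lower member was Nop10 (-1.40 ± 0.36, edgeR adjusted p = 0.0186). It had 49.5, 28.3 and 16.3 FPKM in low-flow pools 1, 4 and 5 and 62.5 and 50.3 at high flow, with every low-flow pool below both high-flow pools. The median of the ribosomal protein genes was 0.01 with all pools and -0.19 without both pools numbered 1, where 13 of 79 were higher and 3 lower when 29.2% of all genes passed, while 51 of 116 further biogenesis genes were higher (median 0.69). Proliferation genes took 0.0306% of counts in low-flow control pool 1 and 0.234 and 0.294% in pools 4 and 5. Macrophage markers took 0.0455, 0.191 and 0.041% there and endothelial markers 1.12, 0.526 and 0.571%. At high flow in controls proliferation genes took 0.0127 to 0.0131% and macrophage markers 0.0153 to 0.0211%, and with all pools 12 of 12 proliferation genes (median 5.09, 2 called) and 13 of 14 macrophage markers (median 3.82, 1 called) were positive at low flow. Smooth muscle markers took 0.129 to 0.177% at low and 0.0295 to 0.0393% at high flow in controls (5 of 8 positive, 1 called). The part of these markers in the members' values was not tested.

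**Figure D5:**
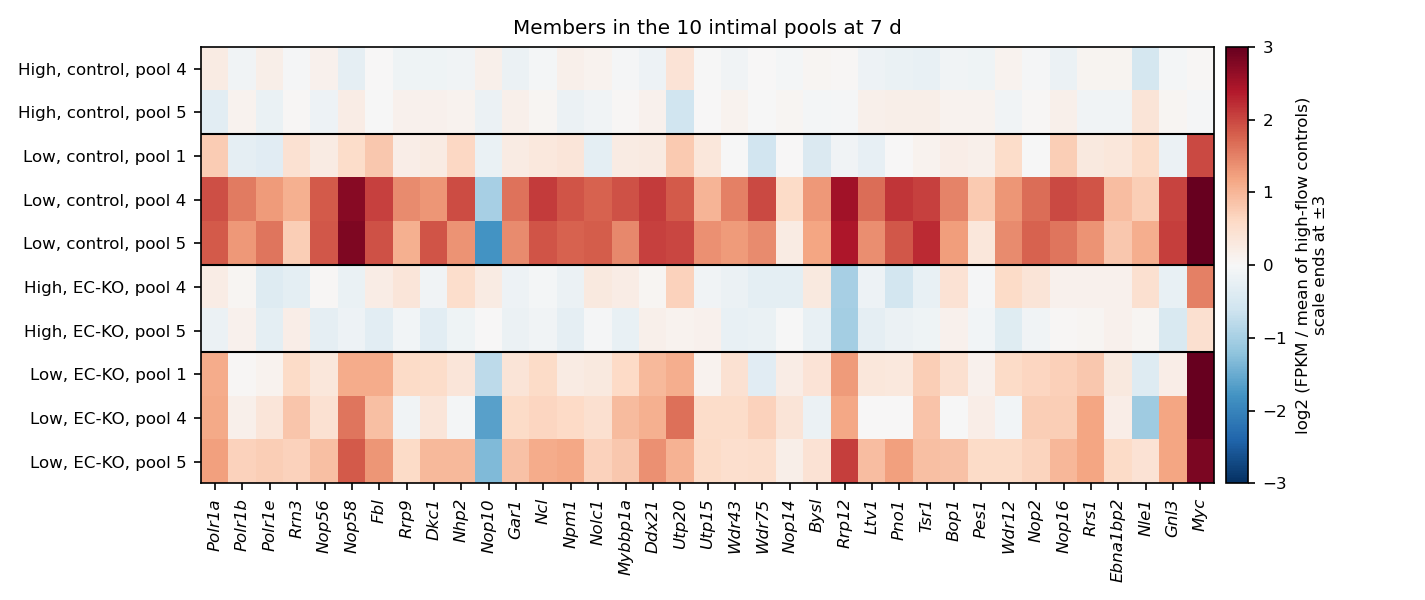
Heat map of log2 FPKM of each member (columns, by role) in the 10 pools at 7 days (rows), relative to the mean of the 2 high-flow control pools, on a colour scale that ends at -3 and 3. Low-flow control pools 4 and 5 are high for most members and control pool 1 is closer to the high-flow pools, whereas the Nop10 column is below 0 in all 6 low-flow pools.

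Deletion of Rbfox2 was visible in the libraries. Rbfox2 had 0.169 to 1.09 FPKM in the 5 EC-KO pools and 2.74 to 5.73 in the 5 control pools, although its change did not pass the test across genes (-2.61 ± 0.58 at low flow, edgeR adjusted p = 0.692, and -2.06 ± 0.69 at high flow, adjusted p = 1). At low flow no member was called between EC-KO and control, and 0% of genes were (4 members and 880 genes at an unadjusted p under 0.05, and 0 members and 11 genes by DESeq2). Values were negative for 36 members, with a median of -0.61. Nhp2 had 24.1, 18 and 36.9 FPKM in EC-KO pools 1, 4 and 5 compared with 28.8, 73.1 and 47.8 in control (-0.91 ± 0.38). Nop56 had 48.8, 52.8 and 72 FPKM compared with 45.6, 138 and 140 (-0.89 ± 0.37), and Nop16 20.9, 21.1 and 25.1 FPKM compared with 21.2, 49.6 and 38.8 (-0.69 ± 0.30). For these 3 genes the edgeR adjusted p was 0.692, and control pool 1 lay within or below the range of the EC-KO pools.

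Myc alone had a positive value (0.75 ± 0.53), with 88.9, 250 and 71.4 FPKM in EC-KO pools 1, 4 and 5, and pool 4 stood far above the other low-flow pools of either genotype. Without control pool 1, 23 members were lower in EC-KO (median -0.97, 11.1% of genes), among them Nop56 (-1.26 ± 0.18, edgeR adjusted p = 0.0105), Tsr1 (-1.30 ± 0.18, adjusted p = 0.0101) and Nolc1 (-1.28 ± 0.17, adjusted p = 0.00962). Without both pools numbered 1, which shared a run, 9 were lower (median -0.89, 2.84% of genes), namely Gnl3, Ncl, Nolc1, Nop2, Nop56, Nop58, Tsr1, Wdr43 and Wdr75. The call of no member thus depends on 1 pool. Proliferation genes took 0.0397, 0.0492 and 0.12% of counts in EC-KO pools 1, 4 and 5, below control pools 4 and 5 and above control pool 1 (0.0306%), and macrophage markers 0.1, 0.19 and 0.131%. Fibroblast markers took 0.0994 to 0.341% in EC-KO and 0.0363 to 0.0971% in control pools, all 6 with positive values, and the 8 neutrophil markers tested all had negative values, although none of either list passed. Whether any of these has a part in the values was not tested.

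At high flow no member was called between the genotypes, when 0.00749% of genes passed (0 members and 293 genes at an unadjusted p under 0.05, and 0 members and 29 genes by DESeq2), and the median was -0.03 with 16 positive values. Myc had 29 and 14 FPKM in EC-KO compared with 10.4 and 9.78 (1.03 ± 0.66), Rrp12 had -1.04 ± 0.72 and Utp20 0.37 ± 0.48, all at an edgeR adjusted p of 1. Proliferation genes were positive in 12 of 12 (median 1.94) and lymphocyte markers in 9 of 9 (median 4.46), none of them called. Lymphocyte markers took 0.00465 to 0.0386% of counts in EC-KO and 0.000355 to 0.00193% in control, and their part in the values was not tested. Low flow against high flow within EC-KO also gave no called member, when 1.09% passed, 0.352% higher and 0.741% lower (8 members and 2099 genes at an unadjusted p under 0.05), with 35 positive values and a median of 0.70. The smallest adjusted p-values were those of Myc (2.69 ± 0.66, edgeR adjusted p = 0.0942), Rrp12 (2.55 ± 0.71, adjusted p = 0.126) and Nop10 (-1.34 ± 0.42, adjusted p = 0.164). Nop10 had 32.7, 18.3 and 22.7 FPKM at low flow and 67 and 56.6 at high flow in EC-KO, again without overlap. Macrophage markers were positive in 13 of 14 (median 4.32), fibroblast markers in 6 of 6 and proliferation genes in 12 of 12, with 1 fibroblast marker called among these. Smooth muscle markers took 0.11 to 0.169% of counts at low and 0.0277 to 0.0325% at high flow in EC-KO (4 of 8 positive, 1 called). The part of these markers in the members' values was not tested. DESeq2 called 4 members higher and 1 lower here (7.17% of genes), and without both pools numbered 1 edgeR called 14 higher and 1 lower (8.36% of genes).

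The flow change itself was compared between the genotypes by an interaction term. No member and 0% of genes passed (0 members and 538 genes at an unadjusted p under 0.05, and 0 members and 21 genes by DESeq2). The median difference of the flow changes, EC-KO minus control, was -0.51, and 3 members were positive. For the same term all 12 proliferation genes (median -3.93) and all 9 lymphocyte markers (median -5.88) were negative, none of them called, and their part in the members' values was not tested. Between EC-KO and control, both lists were positive throughout at high flow. At low flow 12 of 12 proliferation genes and 7 of 9 lymphocyte markers were negative. For the difference of flow changes, the smallest adjusted p-values of members were those of Nhp2 (-1.08 ± 0.60), Wdr12 (-0.87 ± 0.51) and Nle1 (-1.25 ± 0.80), all 0.986 by edgeR. Without control pool 1 the median was -0.86, with no call.

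Cultured cells held 1 library per condition, so their differences have no replicate check and no test. In the immortalized line the members took 0.286% of counts, 0.287% with plasma, 0.277% with platelets and monocytes, and 0.385% with all of these. With all 3 additions Rrp12 went from 2.16 to 5.54 FPKM and Tsr1 from 12.8 to 28.9, the 2 members past 2-fold higher (9.32% of 12727 genes with at least 10 counts in one of the libraries), and the median of the members was 0.52 compared with -0.11 over all genes. Myc was at 26.7 FPKM in the untreated line, 20.2 with plasma, 24.6 with platelets and monocytes and 49.6 with all. Nop10 was the only member past 2-fold lower with plasma (84.1 to 39.5 FPKM, 8.42% of genes) and with platelets and monocytes (31 FPKM, 7.14% of genes), and no member was past 2-fold higher in these 2. Macrophage markers summed to 0.00616% in the untreated line, with Emr1, Fcgr1, Cd163, Itgam, C1qa, Ccr2 and Msr1 at 0, and to 0.0331% with all additions.

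In primary endothelial cells, the members took 0.355% of counts in the Rbfox2 EC-KO culture and 0.388% in the control, where Rbfox2 was at 0.675 and 9.33 FPKM. No member was past 2-fold in either direction (5.88% of genes higher and 6.4% lower), and the median was -0.12. Myc was at 114 FPKM in EC-KO and 136 in control. These cells had been cultured, and macrophage markers summed to 0.0173% in the EC-KO library with 10 of 14 markers at 0, and to 0.0499% in the control library with 3 of 14 at 0. Smooth muscle markers took 0.455 and 0.576% and endothelial markers 0.57 and 0.52% in the EC-KO and the control library. Their part in the values was not tested.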

How the data were processed

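Poly(A) RNA flushed from pooled intimas, or taken from cultures, had been amplified with a low-input kit. The authors deposited expected counts per gene with an effective length per gene, and the submitters' processing notes name RSEM 1.2.15, STAR 2.5.1b and mm9, whereas the paper's methods name TopHat for the flow triplicates. Of 204 columns of per-library values 42 were used, with 1 sequencing run per library, and 162 were not. Run 1 was used for the 100 bp libraries, and the repeated run for EC-KO pool 4 and control pool 5 at low flow and 7 days. One of 21675 entries had no name and was left out. No column of the authors' own comparisons was used.

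Expected counts were rounded and tested with edgeR 4.0.16 in R 4.3.3 (filterByExpr, TMM, quasi-likelihood F-test, Benjamini-Hochberg adjustment over all genes tested, threshold 0.05). Each untreated comparison was fitted on its 2 groups, and the depletion and 7 day experiments each in one fit of all groups. The scripts were tested on simulated counts. Simulated 2-fold changes were recovered in 36.4% of cases for untreated low against high flow. For anti-GPIba this was 0.0% and for the 7 day controls 2.0%. At 4-fold, recovery was 96.0, 44.9 and 42.4% in the same order. A member without a call in these depletion and 7 day fits can therefore still differ. FPKM was computed from the expected counts, the library total and 1 effective length per gene, and read lengths differ between experiments, so levels are compared within one experiment only. Python 3.11.15 with pandas 2.3.3 and numpy 2.4.6 was used for the rest. Single libraries were compared at 2-fold among genes with at least 10 counts.

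Every value per pool is given for Myc and, in each role group, for the member with the highest mean FPKM and the called member with the largest change between low and high flow. Elsewhere the members with the 3 smallest adjusted p are named, and of other lists the 3 called genes that changed most each way between low and high flow. Other genes named were chosen after their values were seen. The members and lists were chosen with earlier results of these data known. Where pools share a number, pairing was checked by the correlation of their deviations from the group means. For Rbfox2 EC-KO against control at low flow, where the numbers come from the column names, it was 0.52, 0.19 and 0.35, and a fit with the number as a block also called 0 members. Alternatives were DESeq2 1.42.0, no filter on low counts, leaving out each pool, the block, the compared groups alone, a second criterion on the fold change and, added after seeing the data, total count scaling and leaving out both pools numbered 1.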

Additional observations from a re-analysis of the deposited data

Results flagged for a closer look

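Nop10, a protein of the H/ACA snoRNP, had low-flow pools all above the high-flow pools at 48 hr with IgG (log2 fold change 1.97) and with PBS liposomes (2.17), and all below the high-flow pools at 7 days in controls (-0.94) and in Rbfox2 EC-KO (-1.34), on both scalings. In the untreated pools at 48 hr low and high flow overlapped (0.73, and -0.09 on the total count), and in the IgG and PBS arms flow and run cannot be told apart. Against sham, Nop10 was called higher in the same untreated low-flow pools under TMM, but not on the total count. At 7 days neither value passed the edgeR test with all pools. The 48 hr pools were C57BL/6J males and the 7 day pools carried floxed alleles and were of both sexes, and the difference between the times was not tested.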

How the results depend on the processing

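Depth and 2 or 3 pools per group limit these results, and where leaving out a pool left 1 in a group, that pool is assumed to vary like the other groups. The planned use of a second sequencing run was not run. All 1588 alternative values of the 143 named pairs of gene and comparison kept their direction or were not called, and 1447 also kept their side of the threshold, while 86 newly passed and 55 no longer passed. The cause of each change below was not tested. With total count scaling, 15 members passed for low against high flow (36.7% of genes) and 7 for low flow against sham (30.1%). For anti-GPIba, DESeq2 called 22 members (27.3% of genes) and the 2 groups alone 31 (34.5%). At 7 days in controls, DESeq2 called 21 (16.3% of genes), no filter 5 (4.06%) and leaving out both pools numbered 1 34 (29.2%), and in EC-KO DESeq2 called 5 (7.17%), the 2 groups alone 9 (6.61%) and leaving out both pools 15 (8.36%). Rbfox2 EC-KO against control at low flow gave 9 without both (2.84%). The last setting and total count scaling were chosen after seeing the data. Leaving out each pool in turn gave 34 to 36 members for low against high flow, 30 to 35 against sham, 0 to 1 for high flow against sham (without sham pool b), 0 to 0 for anti-GPIba, 0 to 4 for clodronate (without clodronate pool 2), 15 to 24 with IgG, 7 to 23 with PBS, 0 to 34 for the 7 day controls and 0 to 23 for EC-KO at low flow (both without control pool 1), and 0 in the remaining comparisons. With a further criterion of log2 fold change of at least 1, 32 members passed for low against high flow (30.7% of genes), 32 against sham (25.7%), 12 for anti-GPIba (13.5%), 29 with IgG (32.8%) and 26 with PBS (27.8%).

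No paired analysis was possible for the untreated pools because their columns carry letters and no replicate numbers. With the pool number as a replicate block, anti-GPIba gave 20 lower members (24.7% of genes), and low against high flow at 7 days gave 29 in controls (22%) and 10 in EC-KO (9.86%), compared with 12, 0 and 0 without the block. The block left 0 for anti-Gr1, clodronate, both EC-KO comparisons with control and the difference of flow changes, and gave 32 with IgG (43.4%) and 30 with PBS (38.1%). In comparisons that share only 2 numbers, the correlation of deviations was -0.03 for anti-GPIba, 0.10 for anti-Gr1, 0.48 for clodronate, 0.01 with IgG, 0.46 with PBS, 0.14 and 0.00 for flow in controls and in EC-KO, and 0.21 for EC-KO at high flow. These numbers were not treated as pairs in the main fits. The values for clodronate and PBS lie within the range for EC-KO against control at low flow (0.19 to 0.52). Pairing is therefore not excluded in those 2 comparisons.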

Other observations

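Of the libraries that belong to no comparison with replicates, the low-flow pools sequenced with 100 bp reads held the members at 0.754% of counts with PBS liposomes and at 0.633% with clodronate liposomes, and at 0.495% with PBS when Npm1 was left out. No member was past 2-fold between these 2 pools (4.74% of genes were higher and 7.15% lower with clodronate), and the median was -0.27 with 6 positive values. Myc was at 51.8 FPKM with PBS and 43.1 with clodronate, and Npm1 at 2320 and 1951, whereas the summed macrophage markers were at 0.167 and 0.0244%. In the primary endothelial cells sorted for eGFP and kept in culture for 5 days, the members took 0.644% of counts, with Myc at 61.8 FPKM and Npm1 at 1845. In that library macrophage markers summed to 0.00756% of counts, with Emr1, Mrc1, Fcgr1, Cd163, Itgam, C1qa, C1qb, Ccr2 and Msr1 at 0, and 8 of 9 neutrophil markers were at 0.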
